A study of Homo sapiens with 15 samples.

Results

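The thrombospondin genes THBS1, THBS2 and THBS3 were followed across every group of inhibitor-treated HT1080 cells in the series. HT1080 is an established human fibrosarcoma cell line. These 3 genes, of 60675 in the expression table, were chosen because THBS2 was nearly lost in the line with inactive KDAC8, so their values in that line are given as a description, with no test. KDACs are lysine deacetylases, also called HDACs, which remove acetyl groups from lysine residues of proteins. RNA-seq was measured in 15 libraries, 3 in each of 5 groups, numbered 1 to 3 by the submitters and called biological replicates in the study's methods.

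In 3 groups a line carried a missense change in the endogenous gene that removes catalysis, and cells received an inhibitor for 2 days. The 6CD1m line carried KDAC6 H216A in the first catalytic domain and the 6CD2m line KDAC6 H611A in the second catalytic domain, and both received 1 µM Tubastatin A, a KDAC6 inhibitor. The 8CDm line carried KDAC8 H143A and received 5 µM PCI-34051, a KDAC8 inhibitor. In the other 2 groups unedited (WT) cells received 1 µM Tubastatin A or 5 µM PCI-34051 for 14 days. Every group was thus exposed to an inhibitor, and untreated cells were not analysed here. Each edited group differs from the WT group on the same inhibitor in genotype, line history and days of exposure together, and these cannot be told apart. Each mutation is represented by 1 line.

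Total counts ran from 10932437 to 19983699 per library, with the smallest in 6CD1m replicate 1. Of 12 mesenchymal markers, 10 or 11 had more than 3 counts in some library of each group. The summed level of the 12 ran from 4469 to 7872 CPM (counts scaled to a common library size) per library. VIM alone was at 2809 to 4887 CPM and FN1 at 393 to 3081 CPM. COL6A1, COL6A2, CDH2, SPARC and TIMP1 lay between 29.6 and 643 CPM, and COL1A1 between 1.71 and 12.4 CPM. COL1A2, COL3A1, S100A4 and THY1 were near absent, at most 1.85 CPM in any library. The sum of 7 epithelial markers was 377 to 533 CPM, nearly all from KRT8 and KRT18. The defining epithelial markers EPCAM and CDH1 had at most 2 counts in any library. Platelets and endothelial cells are well-known sources of thrombospondins. The platelet gene PF4 was at 0 in all libraries, 6 blood markers summed to 0.0533 to 2.13 CPM, and 5 endothelial markers to 0.708 to 5.48 CPM, with 6CD2m at 4.84 to 5.15 CPM and 8CDm at 4.61 to 5.48 CPM.

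Thrombospondins are large secreted glycoproteins of the extracellular matrix that bind calcium, cell surface receptors, proteases and growth factors. THBS1 and THBS2 assemble as trimers, carry the thrombospondin type 1 repeats that bind the receptor CD36, and are best known as inhibitors of blood vessel growth. THBS1 can activate latent TGF-beta. THBS2 lacks the short motif used for that activation and controls the level of matrix metalloproteinases by clearance through the receptor LRP1. THBS3 belongs with THBS4 and COMP to the pentameric subgroup, which lacks type 1 repeats. Fibroblasts secrete THBS1 and THBS2 as matricellular proteins, which adjust how cells meet the matrix.

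In the human genome (GRCh38, GENCODE 29) THBS1 (ENSG00000137801) lies on the plus strand at chr15:39581079-39599466, THBS2 (ENSG00000186340) on the minus strand at chr6:169215780-169254044 and THBS3 (ENSG00000169231) on the minus strand at chr1:155195588-155209051. Their merged exons span 9158, 6412 and 4623 bases. The upstream sequences of THBS1 and THBS2 are shown because these genes, which encode the most similar proteins of the 3, had different patterns over the groups. Each run is the 250 bases before the RefSeq start site in GRCh38.p14, written 5′ to 3′ on the strand of the gene, at chr15:39580829-39581078 (plus) for THBS1 and chr6:169253847-169254096 (minus) for THBS2. The GENCODE start of THBS2 lies further upstream than the RefSeq one, so most of its window is inside the GENCODE span given above. The THBS1 window ends just before its GENCODE start. Capitals mark matches on either strand to any of the motifs searched.
THBS1: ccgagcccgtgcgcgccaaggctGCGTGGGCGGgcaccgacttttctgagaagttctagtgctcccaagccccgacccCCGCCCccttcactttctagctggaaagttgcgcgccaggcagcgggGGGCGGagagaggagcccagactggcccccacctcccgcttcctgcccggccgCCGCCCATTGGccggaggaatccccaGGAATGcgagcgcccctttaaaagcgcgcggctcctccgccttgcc
THBS2: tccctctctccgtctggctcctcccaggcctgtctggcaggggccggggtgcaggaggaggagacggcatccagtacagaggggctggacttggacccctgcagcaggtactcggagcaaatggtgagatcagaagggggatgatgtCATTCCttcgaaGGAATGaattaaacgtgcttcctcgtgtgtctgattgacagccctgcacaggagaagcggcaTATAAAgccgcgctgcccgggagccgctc

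The motifs searched were the TATA box (TATAAA), the CCAAT box (these letters), the GC box (GGGCGG), and the motifs of TEAD (GGAATG), AP-1 (TGANTCA), CREB (TGACGT), MYC and related factors (CACGTG, the E-box) and EGR (GCGTGGGCG). The THBS1 window held 4 GC boxes, at 223, 172, 125 and 72 bases before the start site, a CCAAT box at 66, a TEAD motif at 46 and an EGR motif at 227 that overlaps a GC box. The CCAAT box adjoins the nearest GC box, so these read as 1 run of capitals. The THBS2 window held neither a GC box nor a CCAAT box. Its matches were a TATA box 29 bases before the start site and a TEAD motif on each strand, at 103 and 91 bases. Over 35116 RefSeq promoter windows of this length, the TATA box letters were present in 10.7%, the CCAAT box in 32%, the GC box in 42.6%, the TEAD motif in 11.9% and the EGR motif in 0.72%. GC content was 69.6% with 24 CpG dinucleotides for THBS1 and 60.0% with 12 for THBS2, against medians of 58% and 11 over all windows. The AP-1, CREB and E-box letters, held by 6.57%, 7.1% and 6.34% of windows, had no match in either. These letters are descriptions of sequence and not measured binding sites.

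THBS2 was expressed in every group except 8CDm. Its counts in 8CDm replicates 1, 2 and 3 were 4, 5 and 7. In WT cells on PCI-34051 they were 4186, 2810 and 2960, and on Tubastatin A 3030, 2182 and 2627. The KDAC6 lines sat with WT, at 1355, 2056 and 2055 counts in 6CD1m and 2877, 3780 and 3077 in 6CD2m. The 12 libraries outside 8CDm thus held 1355 to 4186 counts and the 3 of 8CDm held 4 to 7. The counting tool gives a fractional value where a read fits more than 1 gene, and none of the 15 THBS2 values was fractional.

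On the CPM scale the order of THBS2 was 8CDm, 6CD1m (134 ± 17.2, SD, n = 3), WT on Tubastatin A (154 ± 13.1), 6CD2m (178 ± 12.0) and WT on PCI-34051 (197 ± 23.5). Apart from 8CDm, the ranges of neighbouring groups in that order overlapped except for WT on Tubastatin A (141 to 167 CPM) and 6CD2m (170 to 191 CPM). The fitted log2 fold change of 8CDm was -8.80 (SE 0.20) against 6CD1m and -9.21 (SE 0.20) against 6CD2m, beside -9.36 (SE 0.20) against WT on the same inhibitor. The 3 values share the same 8CDm libraries, which the choice of the genes used. In bulk RNA, fewer cells expressing a gene and less RNA of it per cell cannot be told apart.

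THBS1 was highest in 8CDm and lowest in 6CD2m. Its levels in 8CDm replicates 1 to 3 were 1361, 1473 and 1480 CPM. In WT on PCI-34051 they were 656, 403 and 424 CPM, with replicate 1 well above the other 2, and in WT on Tubastatin A they were 462, 420 and 426 CPM. In 6CD1m they were 498, 731 and 796 CPM, with replicate 1, the smallest library, the lowest. In 6CD2m they were 184, 222 and 194 CPM, all below every other library of the series. From low to high the groups were 6CD2m, WT on Tubastatin A, WT on PCI-34051, 6CD1m and 8CDm. Both WT groups overlapped, as did WT on PCI-34051 and 6CD1m, while the lowest and the highest group stood clear of their neighbours.

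THBS3 rested on 80 to 323 counts per library. Its levels in 8CDm were 15.1, 13.5 and 17.3 CPM, and in 6CD1m 16.6, 10.5 and 12.9 CPM. In 6CD2m they were 5.92, 4.31 and 4.45 CPM. The WT groups lay between, at 6.88, 10.9 and 8.11 CPM on PCI-34051 and 6.36, 10.2 and 7.74 CPM on Tubastatin A. The order of the group means was the same as for THBS1. The 6CD2m libraries lay below all others, and each later group in the order overlapped the next.

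**Figure D1:**
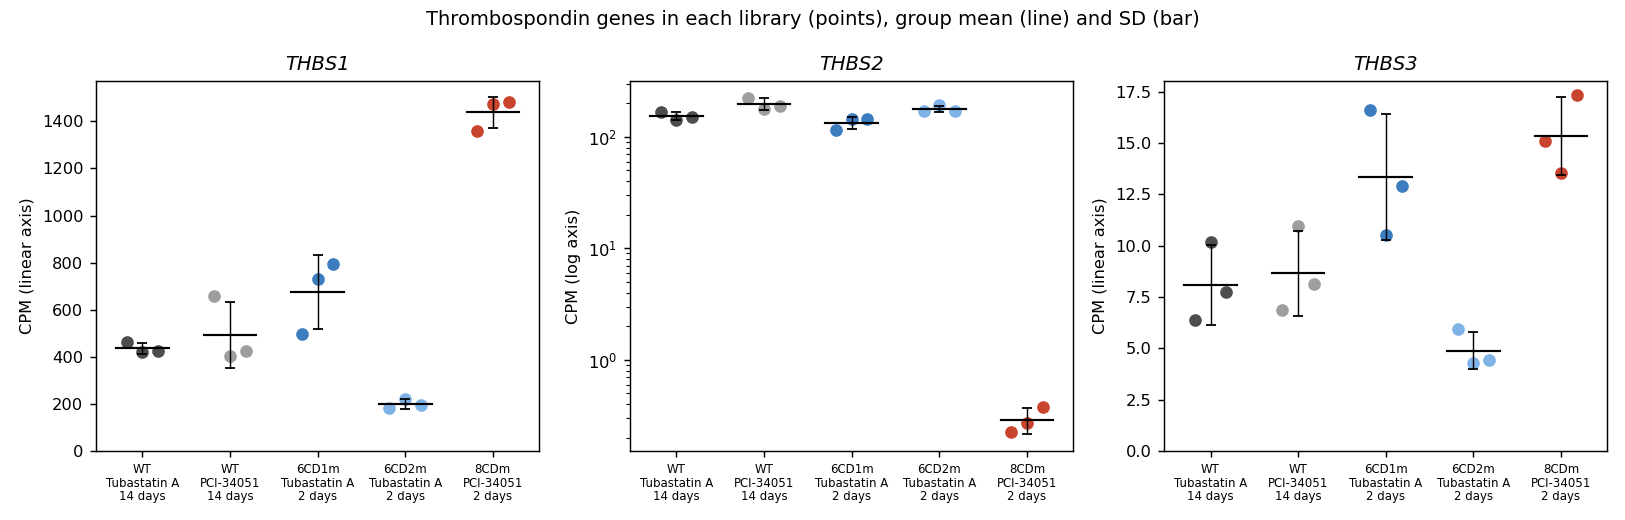
Level of THBS1, THBS2 and THBS3 in CPM (vertical axes, linear for THBS1 and THBS3 and logarithmic for THBS2) in each of 15 libraries (points) by group (horizontal axis), with the group mean as a line and the SD as a bar. The 3 THBS2 points of 8CDm sit between 0.228 and 0.376 CPM and the other 12 between 114 and 223 CPM, while THBS1 and THBS3 are highest on average in 8CDm and lowest in 6CD2m.

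The balance within the family was compared per length, as CPM per kilobase of merged exon. In WT cells THBS1 made up 64.3% ± 0.323 (SD, n = 3) of the summed level of THBS1 to THBS4 on Tubastatin A and 61.2% ± 4.11 on PCI-34051, and THBS2 made up 32.3% ± 1.07 and 35.6% ± 3.15. In 6CD1m the share of THBS1 was 74.8% ± 3.12 and that of THBS2 21.5% ± 1.72. The order was inverted in 6CD2m, with THBS2 at 53.9% ± 0.573 and THBS1 at 42.4% ± 1.08. In 8CDm THBS1 made up 97.6% ± 0.262 and THBS2 0.0281% ± 0.00640.

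The ratio of THBS1 to THBS2 per length ran from 0.758 to 0.811 in the 6CD2m libraries, from 1.56 to 2.08 in the 6 WT libraries, from 3.06 to 3.89 in 6CD1m and from 2757 to 4183 in 8CDm. None of these ranges touched each other. The summed level was highest where THBS2 was lost, at 161 ± 7.20 CPM per kilobase in 8CDm, against 87.3 ± 18.6 in WT on PCI-34051, 74.1 ± 4.09 in WT on Tubastatin A, 98.0 ± 19.1 in 6CD1m and 51.4 ± 3.77 in 6CD2m. THBS3 contributed 2.06% to 3.11% on average in every group.

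**Figure D2:**
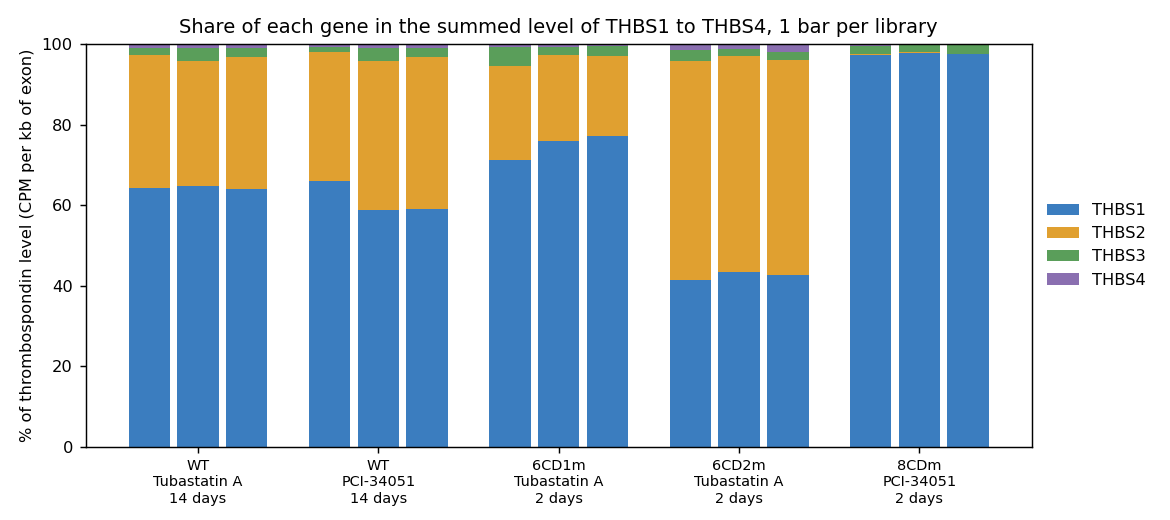
Share of THBS1, THBS2, THBS3 and THBS4 (colours) in their summed level, in % of CPM per kilobase of exon (vertical axis), with 1 bar per library grouped by condition. THBS2 is the larger part in the 3 bars of 6CD2m (mean 53.9%), the smaller part in WT and 6CD1m, and too thin to see in 8CDm (mean 0.0281%).

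The remaining family members were near the lower end of detection. THBS4 had 27 to 82 counts per library, and its group means ran from 2.38 ± 0.927 CPM in 8CDm to 3.74 ± 0.710 CPM in 6CD2m. It passed the test in none of the 4 comparisons without 8CDm (edgeR quasi-likelihood test, Benjamini-Hochberg adjusted p from 0.12 to 0.92). COMP, a cartilage member, was at 0 counts in all libraries but 1, which had 1 count, so a change in it was not detectable at this depth.

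The comparisons without 8CDm were then tested. A gene was called at an adjusted p below 0.001, the study's threshold. In 6CD2m against WT on Tubastatin A, which sets an inactive second domain under 2 days of inhibitor beside unedited cells under 14 days of it, 1 of the 3 genes was called, where 11.8% of all 19535 genes tested were. THBS1 was 2.18-fold lower in 6CD2m (log2 fold change -1.12, SE 0.18, adjusted p = 0.00021, edgeR quasi-likelihood test with Benjamini-Hochberg adjustment), with no overlap of libraries. The call was lost on leaving out any 1 replicate number from the 2 groups compared (edgeR adjusted p from 0.0032 to 0.01), with the log2 fold change between -1.19 and -0.98. For THBS3 the log2 fold change was -0.72 (SE 0.23), which did not pass (edgeR quasi-likelihood adjusted p = 0.024). For THBS2 it was 0.21 (95% interval -0.03 to 0.45, edgeR quasi-likelihood adjusted p = 0.18), though all its 6CD2m libraries lay above those of WT. Libraries of the 2 groups did not overlap for any of the 3 genes, and the same held for 50.0% of all genes tested.

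In 6CD1m against WT on Tubastatin A none of the 3 genes was called, with 0.793% of all genes called. The log2 fold change was 0.63 (SE 0.18, edgeR quasi-likelihood adjusted p = 0.041) for THBS1 and 0.72 (SE 0.22, edgeR quasi-likelihood adjusted p = 0.053) for THBS3, both with every 6CD1m library above every WT one, a separation found for 31.0% of genes in either direction. For THBS2 the libraries overlapped and the log2 fold change was -0.20 (SE 0.11, edgeR quasi-likelihood adjusted p = 0.24). THBS1 and THBS3 therefore had opposite signs in the lines with the first and the second domain changed, both set against the same 3 WT libraries.

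The direct comparison of 6CD1m with 6CD2m, both on Tubastatin A for 2 days, tested that difference. THBS1 and THBS3 were called, 2 of 3 genes, against 13.2% of all genes. THBS1 was 3.37-fold higher in 6CD1m (log2 fold change 1.75, SE 0.18, edgeR quasi-likelihood adjusted p = 4.1e-06). It was called under each alternative tried, with the log2 fold change from 1.54 to 1.86. THBS3 was 2.72-fold higher (log2 fold change 1.45, SE 0.23, edgeR quasi-likelihood adjusted p = 0.00018). Without any 1 replicate number it missed the threshold (edgeR adjusted p from 0.0011 to 0.0041) at log2 fold changes of 1.35 to 1.48. THBS2 was 1.33-fold lower in 6CD1m without being called (log2 fold change -0.41, SE 0.11, edgeR quasi-likelihood adjusted p = 0.011). For all 3 genes the libraries of the lines did not overlap, as for 51.7% of genes.

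The inhibitors themselves were compared in unedited cells after 14 days, in which line and duration are shared. Neither THBS1 nor THBS3 was called, against 0.420% of all genes. THBS2, given as a description because the WT libraries on PCI-34051 stood in the contrast behind the choice of the genes, was 1.28-fold lower on Tubastatin A than on PCI-34051 (log2 fold change -0.36, SE 0.11), with separate libraries, as for 25.9% of genes. THBS1 (log2 fold change -0.18, 95% interval -0.56 to 0.20, edgeR quasi-likelihood adjusted p = 0.51) and THBS3 (-0.10, 95% interval -0.57 to 0.38, edgeR quasi-likelihood adjusted p = 0.79) overlapped between the inhibitors. Without replicate 1 of both WT groups the THBS1 value was 0.0364, and with a correction for GC content the THBS3 value was 0.0508.

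Set against WT on PCI-34051, 8CDm had 2.91-fold more THBS1 (log2 fold change 1.54, SE 0.18) and 1.78-fold more THBS3 (0.83, SE 0.22). These are descriptions in the contrast that the choice of genes used, in which 11.0% of all genes were called and the libraries of 48.1% did not overlap. The libraries of all 3 thrombospondins did not overlap. Against 6CD1m the fitted fold was 2.13 for THBS1 and 1.15 for THBS3, with overlap for THBS3, in a contrast where libraries of 50.7% of genes did not overlap. Against 6CD2m it was 7.18 for THBS1 and 3.14 for THBS3, with no overlap for any of the 3, as for 51.6% of genes. In these comparisons inhibitor and genotype differ together.

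**Figure D3:**
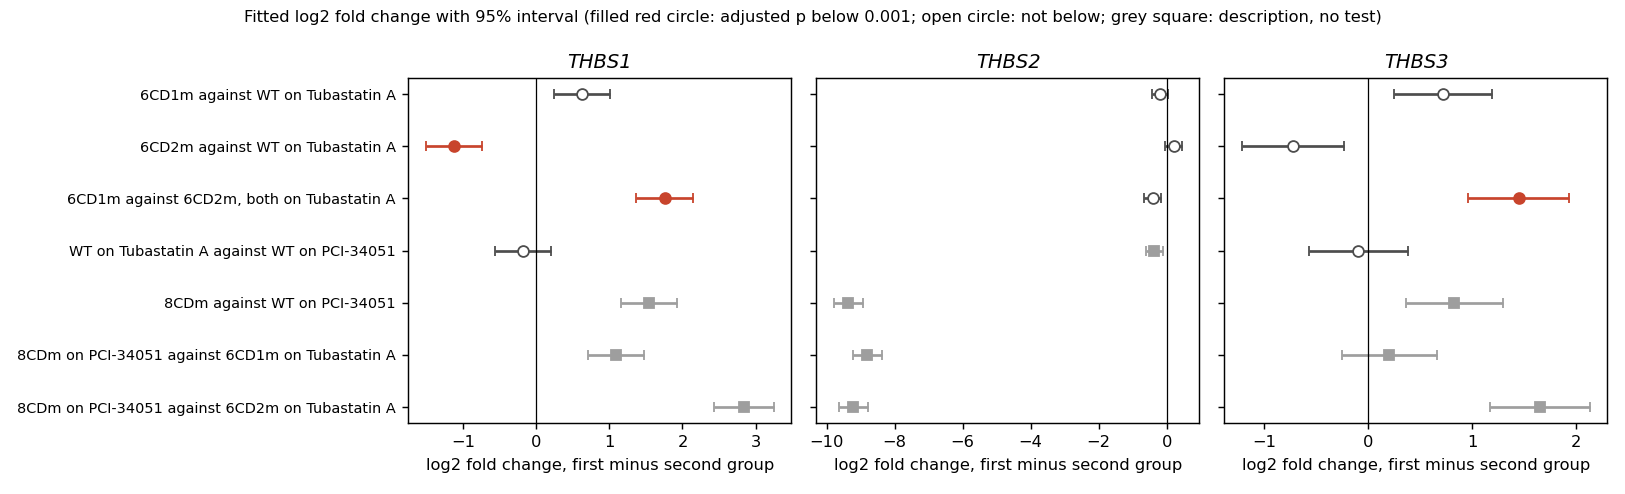
Fitted log2 fold change (horizontal axes, first named group minus second) with its 95% interval for each gene in 7 comparisons (vertical axis). Filled circles passed the adjusted threshold of 0.001, open circles did not, and grey squares are descriptions with no test. THBS1 and THBS3 lie on the same side of 0 in each row. Both intervals span 0 between the WT groups, and that of THBS3 also spans 0 in 8CDm against 6CD1m (-0.26 to 0.66). THBS2 lies between -9.36 and -8.80 in the 3 rows with 8CDm.

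Over the 15 libraries, log2 CPM of THBS1 and THBS3 had a Pearson correlation of 0.812, and over the 12 without 8CDm 0.709. THBS1 and THBS2 had -0.777, and -0.260 without 8CDm. THBS2 and THBS3 had -0.610 and -0.686. These values describe 15 points that share 5 conditions, and the points are not independent.

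Transcripts that overlap each gene were read next, because the strand setting of the counting is not given in the sources used here and reads of overlapping genes could be mixed. THBS2-AS1, an antisense transcript that overlaps the THBS2 span but shares no exon base with it, had 18 to 31 counts in WT on PCI-34051, 10 to 22 in WT on Tubastatin A, 16 to 20 in 6CD1m, 8 to 18 in 6CD2m and 0 to 1 in 8CDm. It was thus low in the same libraries as THBS2. At its highest it was 1.96 CPM, a small amount beside THBS2.

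At THBS1, the intronic transcript THBS1-IT1 and the antisense THBS1-AS1, which shares 411 exon bases, were also lowest in 6CD2m, at 0.486 ± 0.202 and 0.488 ± 0.229 CPM. In WT on Tubastatin A they were at 1.94 ± 0.638 and 1.92 ± 0.376 CPM, and in 6CD1m at 3.31 ± 0.398 and 4.43 ± 0.792 CPM. In 8CDm they were at 4.37 ± 0.806 and 3.95 ± 0.697 CPM, and the libraries of both overlapped those of WT on PCI-34051 (3.72 ± 0.267 and 3.56 ± 0.599 CPM), unlike those of THBS1 itself. FSIP1, which shares 448 exon bases with THBS1, stayed at means of 0.332 to 0.765 CPM.

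THBS3 shares 1027 exon bases with THBS3-AS1 and 146 with MTX1, which encodes a mitochondrial import protein. THBS3-AS1 was highest in 6CD1m (4.40 ± 1.11 CPM) and between 2.26 and 2.82 CPM on average elsewhere. MTX1 ranged from 9.66 ± 0.161 CPM in 6CD2m to 14.1 ± 1.04 in WT on PCI-34051. Its group order differed from that of THBS3, with 8CDm (12.4 ± 0.481 CPM) below WT on PCI-34051. In 14 of 15 libraries THBS3 had a fractional count, and THBS1 in 15 of 15, unlike THBS2.

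The chromosome around THBS2 was described in 8CDm against WT on PCI-34051. Of 8 tested genes within 1 Mb, 0 were called higher and 4 lower, against 4.69% and 6.27% of all genes, and the median log2 fold change was -0.94, beside -0.34 over 721 protein-coding genes of chromosome 6 and -0.04 over all genes tested. Among the lower genes was THBS2-AS1, which overlaps the THBS2 span. LINC01615, a long non-coding RNA 52.9 kb away, had 12 to 29 counts in WT on PCI-34051 and 0 in each 8CDm library, where a count of 0 allows up to 3. It also had 3 to 5 counts in 6CD2m, against 11 to 18 in WT on Tubastatin A, although THBS2 was not lower there. LINC01615 was the only tested gene within 1 Mb on its side of THBS2. Of the next tested genes on that side, all beyond 1 Mb, the coding genes MLLT4 (log2 fold change -0.63) and FGFR1OP (-1.04) were called lower in 8CDm. The non-coding MLLT4-AS1 (-0.24) and RP11-517H2.6 (-1.01) were not called.

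The nearest protein-coding gene, WDR27, at 203 kb, was at 46.6 ± 1.70 CPM in 8CDm and 92.2 ± 22.7 in WT on PCI-34051 (log2 fold change -0.98). C6orf120, at 448 kb, was at 27.9 ± 3.12 and 51.7 ± 6.25 CPM (-0.89). PHF10, a chromatin remodelling subunit a little further on, was at 47.4 ± 1.73 and 45.8 ± 12.2 CPM (0.05). Near-complete absence in 8CDm was seen in THBS2, THBS2-AS1 and LINC01615, while the coding neighbours within 1 Mb had log2 fold changes from -0.98 to 0.05. In the other 4 comparisons 1 of the 8 neighbours was called, lower in 6CD1m than in 6CD2m, where 13.2% of all genes were called. The shares over all genes were 0.793% in 6CD1m against WT, 11.8% in 6CD2m against WT and 0.420% between the WT groups.

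Around THBS1, 2 of 25 genes within 1 Mb were called higher in 8CDm and 1 lower, against 4.69% and 6.27% of all genes. The median log2 fold change was 0.15, beside 0.05 over 462 coding genes of chromosome 15. The higher genes were BMF, an apoptosis activator, at 488 kb (21.9 against 7.45 CPM) and PLCB2, a phospholipase, at 679 kb (2.34 against 0.330 CPM). In 6CD2m against WT on Tubastatin A, 1 neighbour was called higher and 4 lower, beside 4.61% and 7.22% of all genes. The higher one was again PLCB2 (log2 fold change 2.68). The lower ones included THBS1-IT1 (-1.99) and THBS1-AS1 (-1.98), which lie within the span of THBS1 and could hold some of its reads. The median over the neighbours, with both of these included, was -0.39 against 0.02 for the chromosome. Around THBS3, 1 of 62 genes was called higher and 3 lower in 8CDm, again against 4.69% and 6.27% of all genes. The median of -0.03 sat beside 0.06 over 1397 coding genes of chromosome 1.

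**Figure D4:**
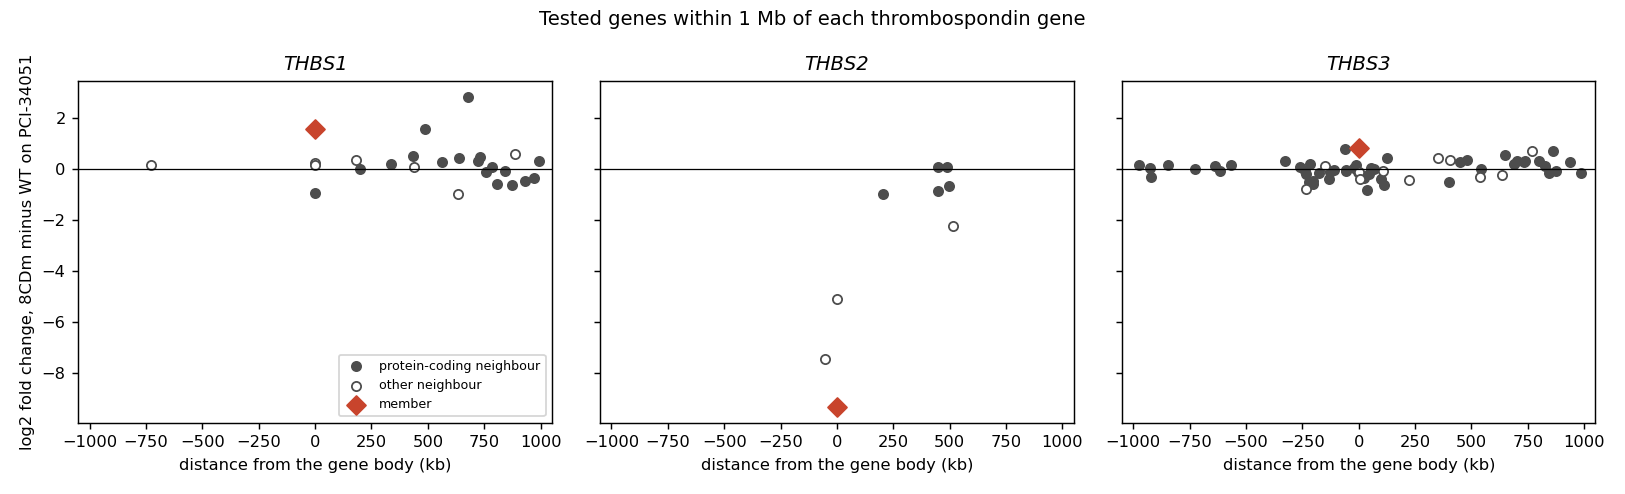
Log2 fold change of 8CDm minus WT on PCI-34051 (vertical axis) for each tested gene within 1 Mb of a thrombospondin gene against its distance from the gene body in kb (horizontal axis), with filled circles for protein-coding neighbours, open circles for others and a diamond for the thrombospondin gene. Near THBS2 the 2 non-coding transcripts beside the gene lie lowest after it, and the lowest neighbour of THBS1 or THBS3 lies at -0.99.

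Among 11006 genes with at least 10 CPM on average in some group, FN1, the matrix protein fibronectin, had the log2 CPM pattern most like that of THBS1 (Pearson r = 0.960 over 15 libraries). Its levels were 425 ± 53.0 CPM in 6CD2m, 1214 ± 35.3 in WT on Tubastatin A, 1414 ± 498 in WT on PCI-34051, 1205 ± 341 in 6CD1m and 3023 ± 66.0 in 8CDm. The extremes were thus the same groups as for THBS1, whereas 6CD1m lay with WT. AKAP13 (0.958), KCNAB2 (0.953), SORBS2 (0.949) and PTPRB (0.948) followed. For THBS3 the closest were CLK1, a kinase of splicing factors (0.950), PSD4 (0.949), CYP4F29P (0.942), SNX18P26 (0.937) and TACC2 (0.919).

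The 5 genes closest to THBS2 were TXLNGY (0.997), TTTY15 (0.996), USP9Y (0.995), UTY (0.995) and KDM5D (0.994), all of chromosome Y. Their group means were at most 0.568 CPM in 8CDm and at least 16.3 CPM in every other group. With 12 libraries high and 3 near 0, these correlations describe that single split. Off chromosome Y, chosen after their values were seen, the closest were SLC43A3, a purine transporter (0.991), PLAT, which encodes tissue plasminogen activator (0.991), and MDN1, of chromosome 6 (0.987). In 8CDm they were at 3.05, 25.7 and 178 CPM on average, and in WT on PCI-34051 at 80.4, 177 and 325 CPM, so each kept a larger part of its WT level than THBS2 did.

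Partners of the thrombospondins were read from 6 lists, holding 116 genes, of which 95 passed the filter on low counts. The lists cover receptors and binding partners, matrix, protease and growth factor partners, latent TGF-beta activation and signalling, other matricellular proteins, other proteins with type 1 repeats, and transcription factors and a microRNA host gene tied to thrombospondin expression. Their call shares were 4.21% in 6CD1m against WT on Tubastatin A (0 higher, 4 lower), 38.9% in 6CD2m against the same WT (14 higher, 23 lower), 31.6% between the KDAC6 lines (13 higher in 6CD1m, 17 lower), 2.11% between the inhibitors in WT (1 higher on Tubastatin A, 1 lower) and 21.1% in 8CDm against WT on PCI-34051 (8 higher, 12 lower). Over every gene tested the corresponding shares were 0.793%, 11.8%, 13.2%, 0.420% and 11.0%. The median log2 fold change over the 95 genes stayed between -0.24 and 0.14.

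In 6CD2m against WT on Tubastatin A, 5 of 16 receptors and binding partners changed, 2 higher and 3 lower. Over all genes tested 11.8% were called in this comparison, the share to set beside each list. NOTCH3, a receptor that THBS2 binds, fell to 4.01 from 20.1 CPM, the Notch ligand JAG1 to 105 from 227 CPM and the proteoglycan SDC1 to 138 from 320 CPM. Of 18 TGF-beta genes 2 rose and 8 fell. The ligand TGFB2 rose 4.33-fold (99.2 against 22.9 CPM) and the TGF-beta-induced matrix protein TGFBI 3.21-fold, while LTBP1, which tethers latent TGF-beta to the matrix, was 1.96-fold lower.

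Of 18 matrix, protease and growth factor partners 5 rose and 3 fell in 6CD2m. The gelatinase MMP9 rose 7.72-fold (17.0 against 2.18 CPM) and the proteoglycan VCAN was 3.02-fold lower. PDGFB, a growth factor chain, had 149 to 199 counts against 0 to 2 in WT. Of 12 other matricellular genes 2 rose and 3 fell, among them TNC, 2.32-fold higher, SPP1, 5.28-fold lower, and CCN3, 2.26-fold lower. Of 16 type 1 repeat proteins 1 rose and 3 fell: UNC5B, a netrin receptor, was 3.17-fold higher, the guidance protein SEMA5A 10.4-fold lower and ISM1 2.29-fold lower. Among 15 regulators 2 rose and 3 fell. ID1, a repressor of THBS1 in other cells, was 2.59-fold lower and MYC 1.78-fold higher. Leaving out replicates 2 or 3 left 8 or 9 list genes higher, and leaving out any replicate left 9 or 10 lower. Over all genes the calls also fell, from 2310 to 1039, 971 and 939 without replicates 1, 2 and 3.

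In 6CD1m against the same WT, the 4 genes called, all lower, were NOTCH3 (2.19-fold), ITGB3, an integrin subunit that binds THBS1 (2.06-fold), SPP1 (3.71-fold) and CCN3 (2.90-fold). NOTCH3, SPP1 and CCN3 were thus lower than WT in both KDAC6 lines, which share these WT libraries. Without replicates 1, 2 or 3 of both groups compared the number was 2, 0 and 1, while all genes called fell from 155 to 77, 30 and 51. The other 4 lists had no call.

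Between the KDAC6 lines, 6 of 16 receptors and partners, 7 of 18 matrix, protease and growth factor partners, 5 of 18 TGF-beta genes, 4 of 12 matricellular genes, 3 of 16 type 1 repeat proteins and 5 of 15 regulators were called. Over all genes tested the share called was 13.2%. TIMP3, a metalloproteinase inhibitor, was 4.34-fold higher in 6CD1m, LTBP2 2.31-fold, SDC1 2.35-fold, NOTCH3 2.28-fold, SEMA5A 7.35-fold, THSD1 1.71-fold, ID1 2.16-fold and JUN 2.00-fold. Lower in 6CD1m were MMP9 (0.761 against 17.0 CPM), PDGFB (0.654 against 9.49 CPM), TGFB2 (3.46-fold), TGFBI (2.36-fold), TNC (3.35-fold), SMOC1 (2.24-fold), CCN1 (1.80-fold), SDC4 (2.01-fold) and UNC5B (5.23-fold). Without replicates 2 or 3 of both lines the numbers were 8 and 7 higher, and 10 and 11 lower. All genes called fell from 2578 to 811 and 1199 in these fits.

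Between the inhibitors in WT cells, SEMA5A was 3.39-fold higher and SMAD3, a transcription factor of TGF-beta signalling, 1.51-fold lower on Tubastatin A. Same-numbered replicates deviated together in this comparison, and with the replicate number as a block 0 list genes were lower. Without replicates 2 or 3 of both WT groups SEMA5A was not called, and without any 1 replicate number SMAD3 was not. All genes called fell from 82 to 51, 6 and 7 without replicates 1, 2 and 3.

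In 8CDm against WT on PCI-34051, given as a description, LRP1, the receptor that clears thrombospondins and the proteases they bind, was at 1183 ± 77.7 CPM against 652 ± 43.4. MMP9 was at 24.0 ± 0.893 CPM against 0.556 ± 0.220, and PDGFB at 53 to 87 counts against 0 to 1. TNC was 2.08-fold higher, SEMA5A 2.14-fold and CCN1 1.39-fold. SMAD3 was at 358 against 900 CPM, and TGFBR3 (3.35-fold), LTBP3 (2.25-fold), VCAN (2.78-fold), SPP1 (2.74-fold), ISM1 (3.02-fold), THSD4 (1.77-fold) and ID1 (2.45-fold) were also lower. Without replicates 2 or 3 of both groups compared, 4 list genes were called higher, and without replicate 2, 7 lower. All genes called fell from 2140 to 792 and 661 without replicates 2 and 3.

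Of the list genes, 15 were called both in 6CD2m and in 8CDm, each against its own WT group, 14 of them with the same sign, among them MMP9, PDGFB and TNC, which were higher, and VCAN, SPP1, ISM1 and ID1, which were lower. The exception was SEMA5A, at log2 fold changes of -3.38 in 6CD2m and 1.10 in 8CDm. Over all genes tested, 821 were called in both and 698 of them had the same sign. THBS1 was lower in 6CD2m and higher in 8CDm.

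**Figure D5:**
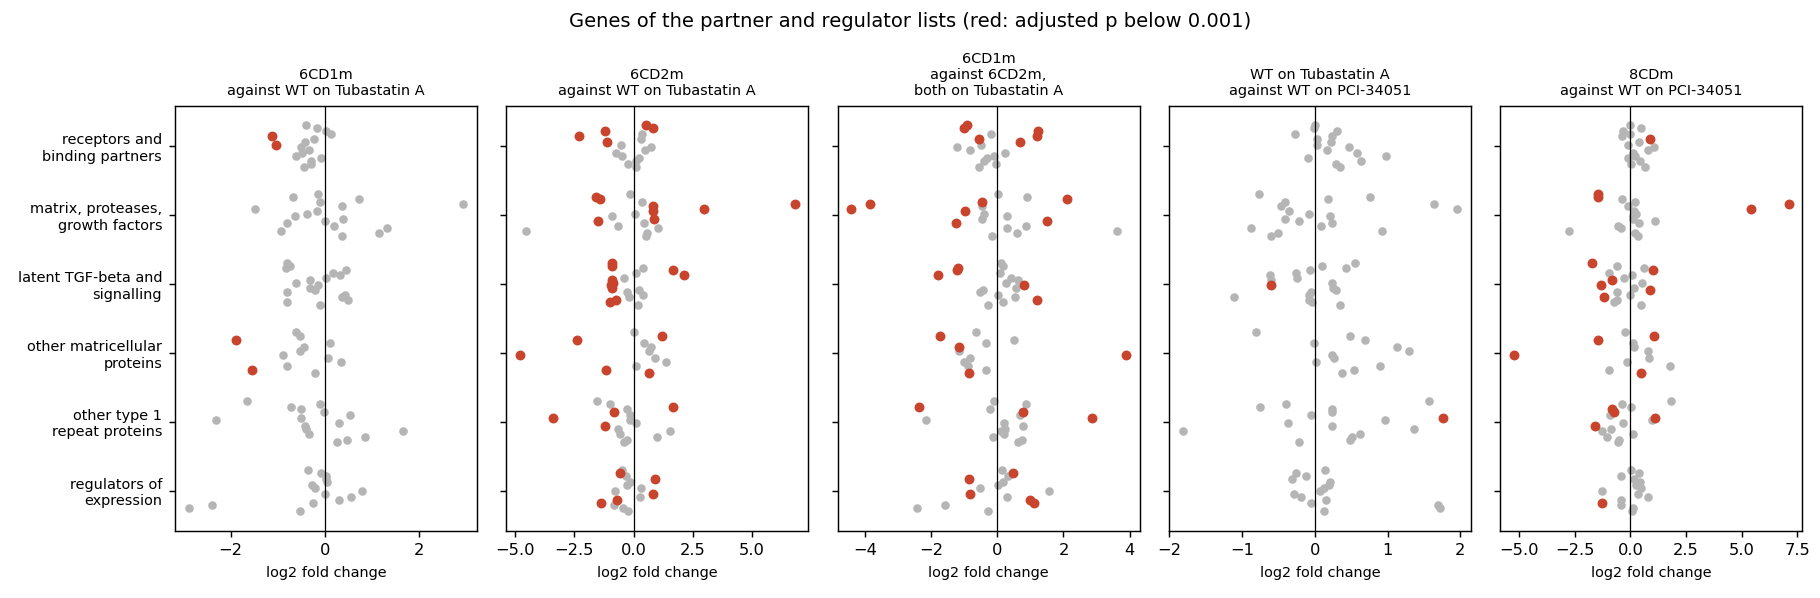
Log2 fold change (horizontal axes, scaled for each panel, first named group minus second) of the 95 tested list genes by list (vertical axis) in 5 comparisons, with genes past an adjusted p of 0.001 in red and the others in grey. Red points number 4, 37, 30, 2 and 20 from left to right, on both sides of 0 in every panel but the first.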

How the data were processed

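RNA-seq libraries of HT1080 cells were read as 1 table of expected counts per gene. The authors deposited these estimated counts after trimming (Trimmomatic 0.39), alignment to GRCh38 (Bowtie2 2.4.5) and RSEM 1.3.3, as the submitters' processing notes list them; DESeq2 1.38.2 is listed too. Of values above 0, 21.8% were not whole. Expected counts share reads between similar genes, and the strand setting is not given in the sources used here.

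Counts were rounded and fitted in R 4.3.3 with edgeR 4.0.16 (quasi-likelihood test, TMM scaling, filterByExpr, 1 mean per group over 15 libraries, Benjamini-Hochberg adjustment over 19535 genes, threshold 0.001). CPM refers to TMM-scaled library sizes. SE is the absolute log2 fold change over the root of F, and intervals are 95%. Comparisons with 8CDm were not tested for the 3 genes, nor was THBS2 between the WT groups, since WT on PCI-34051 also stood in the contrast behind their choice. The fit was tested on simulated data. The study's methods call the replicates biological.

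Gene models came from GENCODE 29 (57055 identifiers matched) and promoter sequences from RefSeq GRCh38.p14. Groups came from the labels, which name no batch. The genes and lists were chosen with earlier results of these data known. Besides the 3 genes, THBS4 and COMP, the text names up to 3 called genes per list and comparison with the largest change (average log2 CPM of at least 1), up to 5 tested genes on each side of a member and the 5 genes of most similar log2 CPM (prior count 1, group mean of at least 10 CPM). Others are named as chosen after their values were seen. A list gene that this rule names is not reported here. Same-numbered WT libraries deviated together (r = 0.461, 0.211 and 0.146 for Tubastatin A with PCI-34051), though the labels state no pairing. In no other comparison did all 3 pairs exceed 0.1. Between 6CD1m and WT on Tubastatin A the values were -0.365, -0.0817 and -0.225. Alternatives were upper-quartile scaling, DESeq2 1.42.0, filters on low counts, protein-coding genes only, GC offsets, a replicate block, a threshold of 0.05, only the libraries compared and leaving out each replicate number.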

Additional observations from a re-analysis of the deposited data

Results flagged for a closer look

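THBS1 and THBS3 differed between the lines with the first and the second catalytic domain of KDAC6 changed. Against the same WT libraries THBS1 was higher in every 6CD1m library and lower in every 6CD2m library, and the difference between the lines was 1.75 on the log2 scale (edgeR quasi-likelihood adjusted p = 4.1e-06). For THBS3 the difference was 1.45 (edgeR quasi-likelihood adjusted p = 0.00018), with every library of the first line above and every library of the second below WT. The THBS3 call was lost without any 1 replicate number (edgeR adjusted p from 0.0011 to 0.0041). Libraries separated from WT, in either direction, for 31.0% of all genes in 6CD1m and 50.0% in 6CD2m. Against WT only THBS1 in 6CD2m was called, which any left-out replicate number also ended. THBS1 and THBS3 in 6CD1m were not called (edgeR quasi-likelihood adjusted p = 0.041 and 0.053). Genotype and line history cannot be told apart between the KDAC6 lines.

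THBS1 and THBS3 also had opposite signs in 8CDm and 6CD2m, each against WT on its own inhibitor. Every 8CDm library was above, and every 6CD2m library below, its WT group. Libraries separated, in either direction, for 48.1% and 50.0% of all genes in these contrasts. The log2 fold changes differed by 2.66 for THBS1 and by 1.55 for THBS3, and these differences were not tested.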

How the results depend on the processing

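THBS1 was called between the KDAC6 lines under all 16 alternatives (log2 fold change 1.54 to 1.86). At a threshold of 0.05, THBS1 in 6CD1m against WT (0.63), THBS3 in 6CD2m against WT (-0.72) and THBS2 between the KDAC6 lines (-0.41) were called too. In these comparisons 1836, 6411 and 7882 of all 19535 genes were called at that threshold. With the replicate block, THBS1 in 6CD2m against WT was -1.12 (edgeR adjusted p = 0.001) and missed the threshold. Same-numbered libraries of these groups share only a number. Between the WT groups, whose same-numbered libraries deviated together, the block changed no call of THBS1 or THBS3. THBS3 between the KDAC6 lines missed it with only the 6 libraries compared (1.43, edgeR adjusted p = 0.0014). Leaving out each replicate number ended 2 calls, where fewer samples were fitted: THBS1 in 6CD2m against WT (-1.19 to -0.98) and THBS3 between the KDAC6 lines (1.35 to 1.48). It also gave -0.27 to 0.0364 for THBS1 between the WT groups, 1.39 to 1.84 for THBS1, -9.61 to -9.12 for THBS2 and 0.69 to 1.11 for THBS3 in 8CDm against WT on PCI-34051, and -9.46 to -9.10 for THBS2 in 8CDm against 6CD2m. THBS3 between the WT groups was 0.0508 with GC offsets and 0.0512 with the replicate block and GC offsets. Over 13946 protein-coding genes the Spearman correlation of log2 fold change with GC content was -0.49 in that comparison. It was -0.45 in 8CDm against WT on PCI-34051, 0.38 in 6CD1m against WT, -0.10 in 6CD2m against WT and 0.33 between the KDAC6 lines. With GC offsets THBS3 between the KDAC6 lines was 1.26 and still called. The cause of these trends was not tested. THBS2 dropped out where at least 10 counts were required in every library. List counts (higher, lower) ranged over all alternatives, the 0.05 threshold included, from 0 to 6 and 0 to 22 in 6CD1m against WT, 8 to 23 and 9 to 33 in 6CD2m against WT, 7 to 25 and 10 to 32 between the KDAC6 lines, 0 to 13 and 0 to 8 between the WT groups and 4 to 24 and 7 to 29 in 8CDm against WT on PCI-34051. In the same order, all genes called ranged from 9 to 1836, 939 to 6411, 811 to 7882, 1 to 1851 and 661 to 7057. With DESeq2, 13 list genes were lower in 6CD1m against WT, 5 were higher and 6 lower between the WT groups, and 16 were higher in 8CDm. Over all genes DESeq2 called 616, 705 and 3849 in these comparisons, where the main fit called 155, 82 and 2140. A change in COMP, at 0 or 1 counts, was beyond this depth.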
